A study of Sus scrofa with 5 samples.

Results

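The genes described here are 8 genes of heparan sulfate and chondroitin sulfate biology: the core protein genes GPC5 and GPC6, the chain-building enzyme gene CHSY3, the sulfotransferase genes NDST4, HS3ST4, HS6ST3 and CHST9, and the heparanase-like gene HPSE2. All 8 had a row in the deposited pig count table, out of 30477 rows. They were chosen by their summed UMI counts across groups of nuclei in these same data, where their levels differed. Their levels in those groups are therefore given as a description, without a test.

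Heparan sulfate and chondroitin sulfate are long sugar chains carried by core proteins on the cell surface and in the matrix. Glypicans are heparan sulfate core proteins anchored in the membrane by a lipid. Enzymes extend each chain and then place sulfate groups along it, and the pattern of sulfation sets which growth factors, guidance cues and adhesion proteins the chain binds. In sensory ganglia and other nervous tissue these chains are known for their part in axon growth, guidance and synapse assembly.

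Single nuclei of dorsal root ganglia, which hold the cell bodies of sensory neurons, had their RNA sequenced to describe the kinds of sensory neuron in the pig. Thoracic and lumbar ganglia came from 5 male Landrace pigs that form 1 group with no treatment or genetic change named, with no age stated in the sources used here. From 80 mg of tissue per sample, nuclei were prepared by protocols that differed in detergent (Triton X-100 or IGEPAL CA-630). They also differed in clean-up, by iodixanol gradient or by magnetic or fluorescence-based selection for the neuronal protein NeuN. In all there were 2189 nuclei with 17277376 UMIs (unique molecular identifiers, each standing for 1 captured RNA molecule). Barcodes carried 6 different endings, which are read here as 6 libraries. No label says what an ending stands for, and which pig or protocol each came from is unknown. The table is thus 1 pooled sample without replicates: no p-value was computed, and 95% intervals (exact Poisson for levels, exact conditional for ratios, exact Clopper-Pearson for shares) cover counting error only.

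Nuclei were clustered without the 8 genes and their pathway, and each cluster joined the group of the marker that led it. This gave 8 groups: TRPM8 (420 nuclei), IL31RA (271), GFRA2 (219), ADCYAP1 (485), KIT (97), NTRK2 (217), NTRK3 (164) and PVALB (212). A single cluster of 104 nuclei was led by none of the 8 markers. Some groups shared markers: KIT nuclei also had 341 CPM of TRPM8 and NTRK3 nuclei 515 CPM of NTRK2. Levels are counts per 1000000 UMIs (CPM) over the summed nuclei of a group, and a group's level within a library is given where the library held at least 10 of its nuclei.

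Libraries stood apart from each other. Median depth ran from 676 UMIs in library 2 (13 nuclei) to 12038 in library 6, and the share of UMIs from the mitochondrial genome from 0.0709% in library 6 to 24.3% in library 3. Of the NTRK2 group, 179 of 217 nuclei came from library 3, and of the PVALB group 141 of 212 from library 1. In the TRPM8 group, 296 of 420 nuclei formed a shallow cluster (median 1437 UMIs, 292 of them from library 1), where TRPM8 stood at 404 CPM against 1117 CPM in the rest of the group. Only 30 nuclei held more than 50000 UMIs, but these gave 16.8% of all UMIs. No barcode was shared between libraries. Markers of other cells were present in all groups: the 6 satellite glia markers summed to 2567 CPM in the PVALB group, 1463 CPM in the TRPM8 group and 371 to 784 CPM in the other marker groups. The 7 Schwann cell markers summed to 1259 CPM (NTRK3) to 1882 CPM (TRPM8) in the marker groups, above the satellite glia sum in all of these but PVALB. That order rests on CADM2 and SCN7A, which had 841 and 140 CPM in NTRK3 and 885 and 449 CPM in TRPM8. The 6 macrophage markers summed to at most 100.4 CPM.

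GPC5 and GPC6, which encode glypicans, were both highest in the NTRK2 group and next highest in the KIT group. GPC5 stood at 1175 CPM in the NTRK2 group (interval 1111 to 1242), 871 CPM in KIT, 562 CPM in NTRK3, 200.4 CPM in GFRA2, 192 CPM in PVALB, 183 CPM in IL31RA, 146 CPM in TRPM8 and 140.3 CPM in ADCYAP1. The NTRK2 level was 4.50-fold that of all other nuclei (4.22 to 4.797). That place rested on library 3, where NTRK2 nuclei had 1410 CPM, whereas they had 99.6 CPM in library 4 and 141 CPM in library 6, below the other nuclei of those libraries (265 and 272 CPM). Mitochondrial UMIs made up 14.2% of the NTRK2 group, the highest share of any group. With mitochondrial UMIs left out of the totals, the log2 ratio of NTRK2 over the other nuclei was 2.29 for GPC5 in place of 2.17. Without library 3 the log2 ratio fell from 2.17 to 0.85 and the KIT group was highest.

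**Figure D1:**
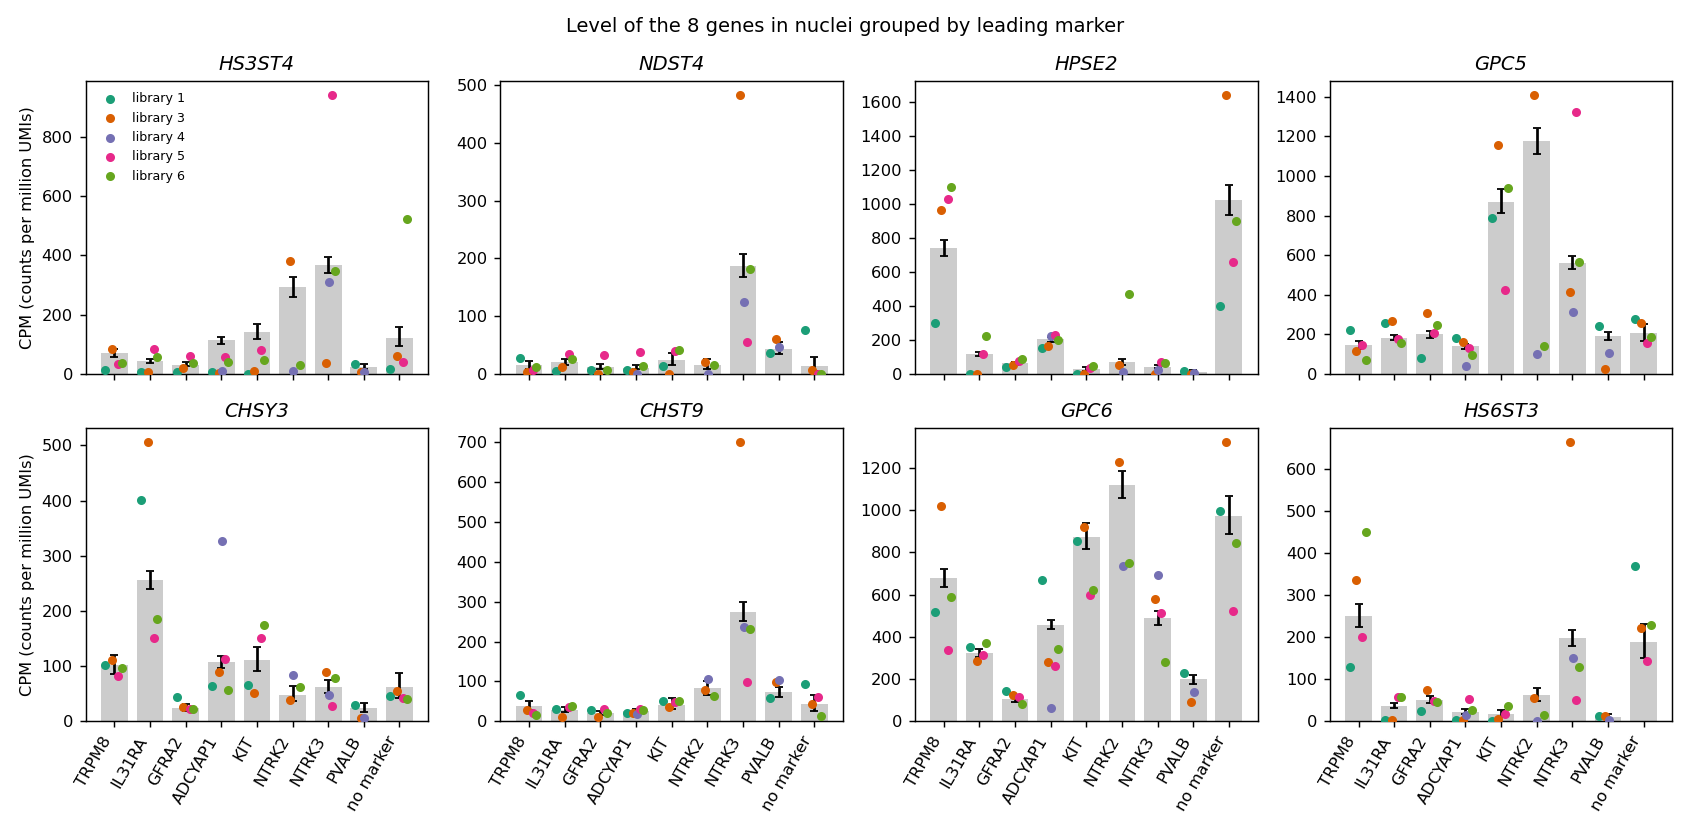
Level of each of the 8 genes in CPM (vertical axis) in the 8 marker groups and the cluster without a leading marker (horizontal axis). Grey bars give the level over all nuclei of a group with its 95% Poisson interval, and coloured points give the level within each library with at least 10 nuclei of that group. NDST4 and CHST9 peak in the NTRK3 group, CHSY3 in IL31RA, and HPSE2 in TRPM8 and the cluster without a marker, while GPC5 in NTRK2 is high in library 3 (1410 CPM) and low in libraries 4 and 6.

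The KIT and NTRK3 groups held GPC5 more evenly. In KIT nuclei it stood at 789 CPM in library 1, 1159 CPM in library 3, 422 CPM in library 5 and 939 CPM in library 6. In NTRK3 nuclei it stood at 415, 315, 1322 and 564 CPM in libraries 3, 4, 5 and 6, and every one of these lay above every library's level in the GFRA2 group (79.4 to 307 CPM). Against the other nuclei of the same library, KIT was higher in 4 of 4 libraries and NTRK3 in 3 of 4. In library 3 the nuclei outside NTRK3 had 511 CPM. Within the NTRK2 group GPC5 differed by cluster. It reached 3033 CPM in a cluster of 111 nuclei, against 421 CPM and 102 CPM in the clusters of 72 and 34 nuclei. Of the first cluster, 13 nuclei came from libraries other than library 3, and these had 3832 CPM.

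GPC6 stood at 1119 CPM in the NTRK2 group (1057 to 1185), 875 CPM in KIT, 679 CPM in TRPM8, 488 CPM in NTRK3, 457 CPM in ADCYAP1, 322 CPM in IL31RA, 198 CPM in PVALB and 103 CPM in GFRA2. It was 2.77-fold the level of all other nuclei in the NTRK2 group (2.60 to 2.95), at 1229, 736 and 751 CPM in libraries 3, 4 and 6. Each of these was above the other nuclei of the same library, by 2.82-fold, 1.16-fold and 2.21-fold. In library 4, 1 NTRK2 nucleus of 113832 UMIs held 112 of the 133 GPC6 UMIs, so that value describes mostly 1 nucleus. Without library 3 the KIT group was highest. GPC6 in GFRA2 nuclei stayed low in all 4 libraries with a value, at 81.4 to 144 CPM, and the IL31RA and PVALB groups, neighbours in the order, did not overlap by library. Single deep nuclei carried part of some levels: 334 of 962 UMIs in NTRK3 and 228 of 818 in KIT. Without that nucleus the level was 343 CPM in NTRK3 and 713 CPM in KIT.

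The NTRK2 clusters also separated the glypicans from each other. The cluster of 111 nuclei had 2018 CPM of GPC6 beside its 3033 CPM of GPC5. The cluster of 34 nuclei had 1458 CPM of GPC6 and 102 CPM of GPC5, with GPC6 at 3612 CPM in its 21 nuclei from library 3 and 841 CPM in the other 13. NTRK2 led this cluster only narrowly, with a marker log2 ratio of 2.26 against 2.15 for KIT.

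CHSY3 encodes a chondroitin synthase, which lengthens chondroitin chains. It was highest in the IL31RA group, at 256 CPM (240.0 to 273). KIT followed with 111 CPM, ADCYAP1 with 107 CPM, TRPM8 with 102 CPM, NTRK3 with 61.9 CPM and NTRK2 with 48.0 CPM, and GFRA2 (24.7 CPM) and PVALB (23.4 CPM) were lowest. The IL31RA level was 3.79-fold that of all other nuclei (3.45 to 4.15). It exceeded the rest in all 4 libraries with a value: 400.5 against 54.5 CPM in library 1, 506 against 61.9 CPM in library 3, 150.3 against 59.1 CPM in library 5 and 186 against 69.6 CPM in library 6. IL31RA nuclei of libraries 1 and 3 thus had more than those of libraries 5 and 6, which formed a cluster of their own. ADCYAP1 nuclei of library 4 (11 nuclei) reached 327 CPM, inside the IL31RA range. KIT nuclei of library 6 (174 CPM) also exceeded IL31RA nuclei of library 5, so the first place overlapped by library, as did every later pair of neighbours in the order of CHSY3.

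NDST4 encodes an N-deacetylase and N-sulfotransferase, an enzyme type that makes the first sulfations of a heparan sulfate chain. It stood at 187 CPM in the NTRK3 group (169 to 207), 43.1 CPM in PVALB, 23.5 CPM in KIT, 20.3 CPM in IL31RA, 16.01 CPM in NTRK2, 15 CPM in TRPM8, 11.8 CPM in GFRA2 and 10.9 CPM in ADCYAP1. The NTRK3 level was 10.2-fold that of all other nuclei (8.71 to 12.0), the largest ratio among the 8 genes. By library, NTRK3 nuclei had 483 CPM against 9.66 CPM in the others (library 3), 124 against 16.6 CPM (library 4), 55.4 against 31.9 CPM (library 5) and 181 against 20.1 CPM (library 6). They were higher in 4 of 4 libraries, but the ratio in library 5 was 1.79-fold. PVALB nuclei in library 3 (59.7 CPM) exceeded NTRK3 nuclei in library 5, so the first and second places overlapped.

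CHST9 encodes a sulfotransferase that places sulfate on N-acetylgalactosamine at chain ends. It too was highest in the NTRK3 group, at 275 CPM (252 to 299), with 82.9 CPM in NTRK2, 72.1 CPM in PVALB, 41.7 CPM in KIT, 38.6 CPM in TRPM8, 29.3 CPM in IL31RA, 25.7 CPM in ADCYAP1 and 19.9 CPM in GFRA2. The NTRK3 level was 7.40-fold that of all other nuclei (6.56 to 8.34). NTRK3 nuclei had 700.3, 236, 99.0 and 232 CPM in libraries 3, 4, 5 and 6, against 35.4, 59.5, 35.6 and 31.5 CPM in the other nuclei of those libraries. PVALB nuclei (58.1 to 103 CPM by library) did not overlap with KIT nuclei (35.9 to 50.6 CPM), the group next in the order.

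HS3ST4 encodes a glucosaminyl 3-O-sulfotransferase, which adds a late and rare sulfate to heparan sulfate. It stood at 367 CPM in the NTRK3 group (341 to 395), 293 CPM in NTRK2 and 142 CPM in KIT. ADCYAP1 had 113 CPM, TRPM8 70.0 CPM, IL31RA 43.1 CPM, GFRA2 31.7 CPM and PVALB 24.0 CPM. The NTRK3 level was 4.43-fold that of all other nuclei (4.03 to 4.85), but only in 3 of 4 libraries. NTRK3 nuclei had 309 CPM in library 4, 942 CPM in library 5 and 348 CPM in library 6, against 160 CPM, 65.6 CPM and 53.8 CPM in the others. In library 3 they had 36.2 CPM and the others 97.1 CPM. NTRK2 nuclei showed the opposite library pattern, with 382 CPM in library 3 and 11.07 and 31.3 CPM in libraries 4 and 6. Without library 5 the NTRK2 group was highest.

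Single nuclei made up most of the HS3ST4 counts in the KIT and ADCYAP1 groups. In KIT, 1 nucleus of library 4 held 105 of 133 UMIs, and the level without it was 33.8 CPM. In ADCYAP1, 1 nucleus of library 2 with 168280 UMIs held 312 of 383 UMIs, and the level without it was 22.0 CPM. HS3ST4 in the NTRK3 group changed less, to 309 CPM without its top nucleus. That nucleus held 130 of the 202 UMIs of NTRK3 nuclei in library 4. The KIT nucleus with 105 UMIs was among the others of library 4, so both sides of that library's comparison rest largely on single nuclei.

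The NTRK3 group consisted of 2 clusters with unlike sets of these enzymes. The cluster of 87 nuclei, 67 of them from library 3 (median 1834 UMIs), had 447 CPM of NDST4, 616 CPM of CHST9, 589 CPM of HS6ST3 and 40.4 CPM of HS3ST4. The cluster of 77 nuclei from the other libraries (median 12715 UMIs) had 141 CPM of NDST4, 214 CPM of CHST9, 127 CPM of HS6ST3 and 425 CPM of HS3ST4. In the 20 nuclei of the first cluster from outside library 3 the levels were 267, 185, 205 and 61.6 CPM for the same genes, which rest on 3 to 13 UMIs each. Cluster and library cannot be told apart for the rest.

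**Figure D2:**
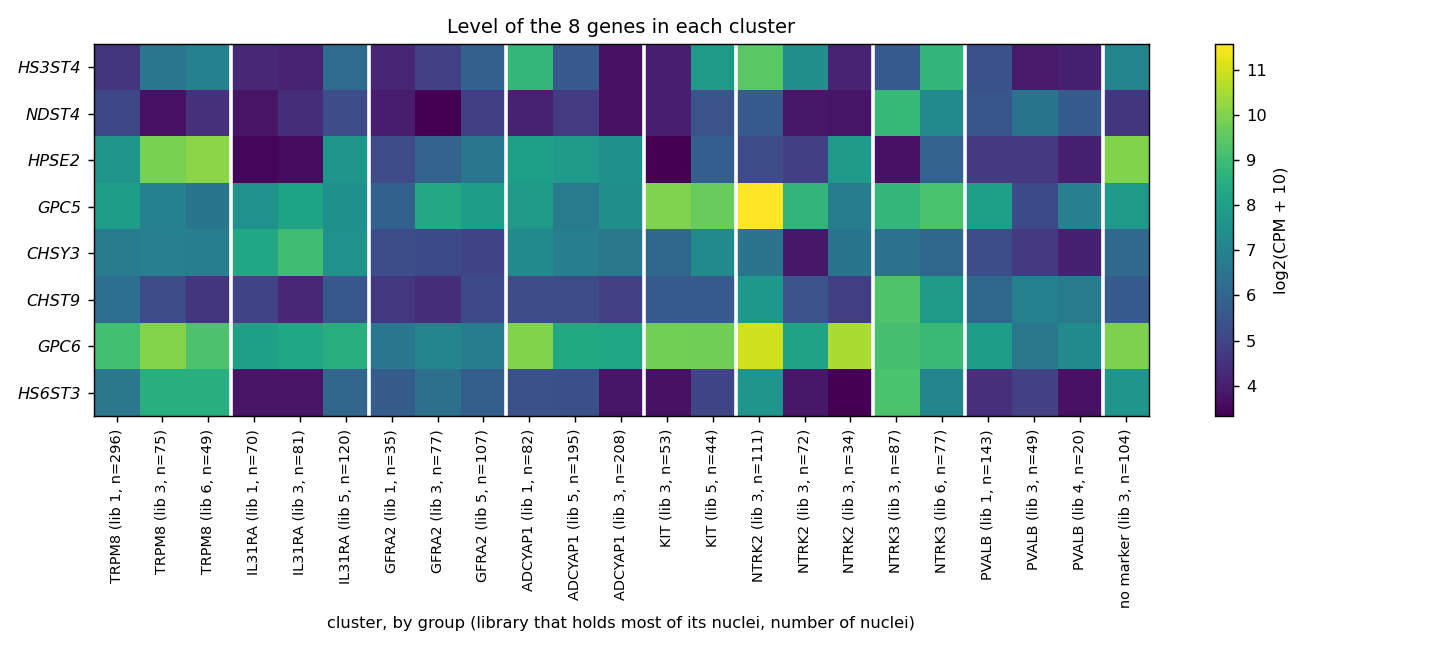
Level of each gene as log2(CPM + 10) (colour) in each of the 23 clusters, ordered by group, with the library that holds most nuclei of a cluster and the number of nuclei below. The NTRK3 clusters differ in HS3ST4 (40.4 against 425 CPM), the NTRK2 clusters in GPC5 (3033, 421 and 102 CPM), and 2 of the IL31RA clusters have almost no HPSE2.

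HS6ST3 encodes a heparan sulfate 6-O-sulfotransferase. Its highest levels were in the TRPM8 group, at 251 CPM (225 to 278), and the NTRK3 group, at 197 CPM (178 to 218). NTRK2 followed with 62.1 CPM, GFRA2 with 50.8 CPM, IL31RA with 36.3 CPM, ADCYAP1 with 22.7 CPM, KIT with 16.05 CPM and PVALB with 11.09 CPM. TRPM8 nuclei were 4.29-fold above all other nuclei (3.78 to 4.86), and higher in 4 of 4 libraries: 129 against 27.1 CPM, 337 against 80.6 CPM, 200.03 against 54.3 CPM and 449 against 61.2 CPM in libraries 1, 3, 5 and 6. NTRK3 nuclei ranged more widely, with 664, 152, 51.5 and 129 CPM in libraries 3, 4, 5 and 6, and the first places overlapped. Without library 6, the NTRK3 group was highest.

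HPSE2 encodes heparanase-2, a relative of heparanase that binds heparan sulfate without the cleaving activity. Among the marker groups it was highest in TRPM8, at 740.1 CPM (696 to 787), then 203 CPM in ADCYAP1, 118 CPM in IL31RA, 69.7 CPM in NTRK2, 62.2 CPM in GFRA2, 43.1 CPM in NTRK3, 28.9 CPM in KIT and 14.2 CPM in PVALB. TRPM8 nuclei were 5.87-fold above all other nuclei (5.44 to 6.33). Within libraries 1, 3, 5 and 6 they had 298, 965, 1028 and 1098 CPM against 50.8, 141, 138 and 169.7 CPM. The lowest of these, 298 CPM, was above the highest library value of the ADCYAP1 group, 228 CPM. In library 1, 292 of the 297 TRPM8 nuclei lay in the shallow cluster. These had 97 of the 164 UMIs, at 188 CPM, which is below 228 CPM. The 298 CPM was also below the 469 CPM (316 to 670) of NTRK2 nuclei in library 6, which rests on 30 UMIs in 14 nuclei. The other nuclei of that library had 227 CPM. The shallow TRPM8 cluster had 192 CPM of HPSE2 and the rest of the group 1066 CPM, and HS6ST3 went the same way with 86.3 and 348 CPM.

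HPSE2 in IL31RA nuclei split by library. It stood at 1.65 CPM in library 1 and 1.87 CPM in library 3, each from 1 UMI, but at 119 CPM in library 5 and 225 CPM in library 6. A single nucleus of 338372 UMIs held 152 of the 436 UMIs of that group, and the group's level without it was 84.7 CPM. In KIT nuclei of libraries 1 and 3 no UMI of HPSE2 was found. In NTRK2 nuclei HPSE2 was carried by the cluster of 34 nuclei, at 212 CPM, against 26.6 and 19.6 CPM in the other clusters. That cluster was led by NTRK2 only narrowly over KIT.

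The cluster without a leading marker had 1020.4 CPM of HPSE2 (933 to 1114) in its 104 nuclei, above the 740.1 CPM of the TRPM8 group. Its GPC6, at 973 CPM (888 to 1065), lay between KIT and NTRK2, and its HS6ST3, at 188 CPM (151 to 230.3), was next to that of NTRK3. HPSE2 there was at 399, 1641, 658 and 899 CPM in libraries 1, 3, 5 and 6. Its leading genes were UNC5D at 3700.0 CPM, a netrin receptor gene, and TRPV1 at 276 CPM, which encodes the heat- and capsaicin-gated channel, while TRPM8 stood at 8.16 CPM. The other 5 genes had 206 CPM (GPC5), 122 CPM (HS3ST4, of which 33 of 60 UMIs lay in 1 nucleus), 61.2 CPM (CHSY3), 42.9 CPM (CHST9) and 14.3 CPM (NDST4).

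The PVALB group was the lowest or next to lowest of the 8 groups for 5 genes: HS3ST4, HPSE2, CHSY3, GPC6 and HS6ST3. Its GPC5 varied by library, with 243, 26.5 and 106 CPM in libraries 1, 3 and 4. Long genes in general were low there. Genes with a span of at least 250 kb, which include all members with a known span, summed to 93222 CPM in the PVALB group and to 204107 CPM or more in every other marker group. The satellite glia sum was also highest in that group. Their part in the low values was not tested.

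To compare shares of nuclei across groups of unlike depth, each nucleus was thinned to 1000 UMIs, which kept 2064 of 2189 nuclei and left out the shallower ones. This kept 371 of 420 nuclei in the TRPM8 group and 191 of 217 in NTRK2. After thinning, NDST4 was found in 20.5% of NTRK3 nuclei (14.3 to 28.0%) and in 0.855 to 6.19% of the other marker groups. Before thinning these shares were 52.4% of NTRK3 nuclei and 4.76 to 18.4% elsewhere. CHST9 was found in 24.7% of thinned NTRK3 nuclei and in 0.926 to 6.25% elsewhere, and CHSY3 in 25.2% of IL31RA nuclei (20.1 to 30.9%) and 0.926 to 11.3% elsewhere. No share of free RNA was measured, so the low ends of these ranges are not read as expression.

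Thinned shares put other groups first for 3 genes. GPC5 was found in 51.0% of KIT nuclei (40.6 to 61.4%), 36.1% of NTRK2 nuclei and 30.1% of NTRK3 nuclei, although its level was highest in NTRK2. HS6ST3 was found in 21.2% of NTRK3 nuclei (14.9 to 28.8%) and 8.63% of TRPM8 nuclei. HS3ST4 was found in 20.9% of NTRK2 nuclei (15.4 to 27.4%) and 15.8% of NTRK3 nuclei (10.3 to 22.7%), intervals that overlapped. HPSE2 reached 48.0% of nuclei in the cluster without a marker (37.9 to 58.2%), 24.3% in TRPM8, 16.9% in ADCYAP1 and 0% in KIT. The count of 0 among 96 KIT nuclei allows up to 3.13% (3 counts), a limit on thinned nuclei with a UMI and not on nuclei that express the gene: before thinning 11.3% of KIT nuclei had an HPSE2 UMI.

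**Figure D3:**
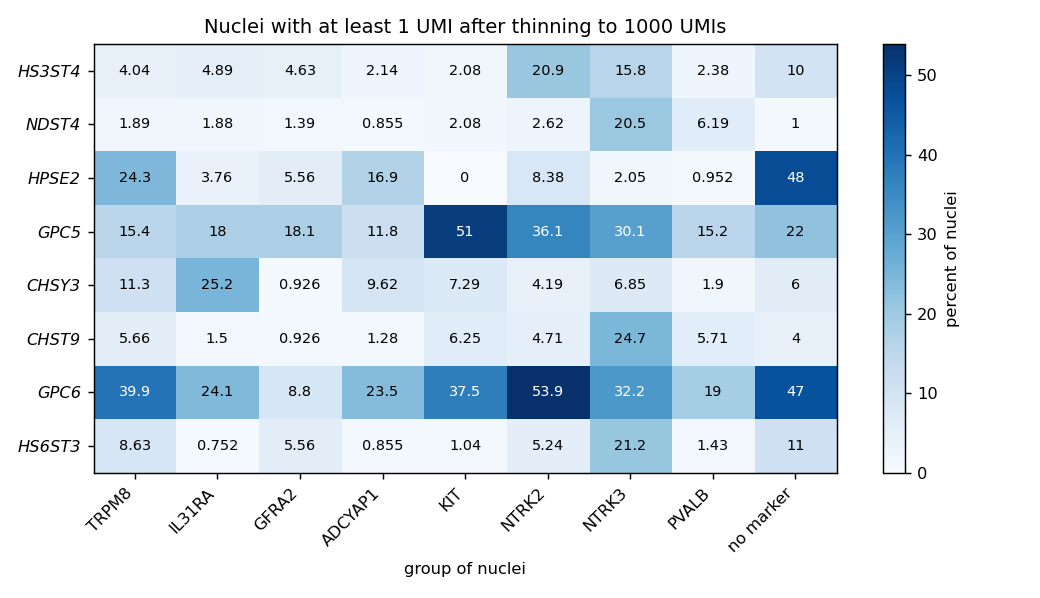
Percent of nuclei (number and colour) with at least 1 UMI of each gene (rows) in each group (columns) after every nucleus was thinned to 1000 UMIs. GPC6 has the largest share over all thinned nuclei (29.7%, against 20.1% for GPC5), with 53.9% of NTRK2 nuclei and at least 8.80% of every group. GPC5 has at least 11.8% of every group and passes GPC6 in KIT (51.0 against 37.5%) and GFRA2 (18.1 against 8.80%). NDST4, CHST9 and HS6ST3 pass 20% only in NTRK3.

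Across all 8 genes, neighbours in the order of levels overlapped in their library values except at 4 places: TRPM8 above ADCYAP1 for HPSE2, NTRK3 above GFRA2 for GPC5, PVALB above KIT for CHST9 and IL31RA above PVALB for GPC6. Only neighbours were compared here. For HPSE2, NTRK2 nuclei of library 6 (469 CPM) lay above TRPM8 nuclei of library 1 (298 CPM). The 292 of those TRPM8 nuclei in the shallow cluster had 188 CPM, below ADCYAP1 nuclei of library 5 (228 CPM).

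By gene length the order of the 8 genes changed. In the RefSeq annotation of Sscrofa11.1, the build named in the submitters' processing notes, 7 of the 8 genes had a span. GPC5 spans chr11:60791000-62149911 (1359 kb), GPC6 chr11:62436143-63560908 (1125 kb) and HS6ST3 chr11:65516180-66193410 (677 kb). HPSE2 spans chr14:109764511-110469064 (705 kb), HS3ST4 chr3:20543833-21056108 (512 kb), CHST9 chr6:111460257-111849411 (389 kb) and CHSY3 chr2:132536085-132803476 (267 kb). Each was longer than 93.1% to 99.8% of the measured genes, whose median span was 39.0 kb. Levels over all nuclei per 100 kb of span were 40.3 CPM for CHSY3, 39.8 CPM for GPC6, 24.9 CPM for HPSE2, 23.3 CPM for GPC5, 22.5 CPM for HS3ST4, 16.5 CPM for CHST9 and 10.9 CPM for HS6ST3.

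GPC5 and GPC6 are neighbours on chromosome 11, 286 kb apart with 0 annotated protein-coding genes between them, and HS6ST3 lies 1955 kb beyond GPC6 with 14 such genes between. Over 31 sums of a group within a library, the log2(CPM + 10) of GPC5 and GPC6 had a Pearson correlation of 0.51, and that of GPC6 and HS6ST3 0.14. The highest of the 28 pairs of members was NDST4 with CHST9, at 0.82. HS3ST4 with HS6ST3 followed at 0.52, and HPSE2 with CHST9 was lowest at -0.40. These points share libraries and groups and differ in depth, so the values describe these sums only.

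Close relatives of the 8 genes had other patterns. Among 3-O-sulfotransferase genes, HS3ST2 was highest in GFRA2 at 535 CPM, followed by 418 CPM in NTRK3 and 367 CPM in IL31RA, and stood at 73.3 CPM in PVALB and 16.05 CPM in KIT. HS3ST5 was highest in KIT at 722 CPM, with 414 CPM in NTRK2, 378 CPM in NTRK3 and 91.8 CPM in PVALB. HS3ST1 was at most 73.1 CPM (NTRK3) and HS3ST6 had 54 UMIs in all. For N-sulfation, NDST3 shared its highest group with NDST4, at 75.6 CPM in NTRK3 and 51.0 CPM in ADCYAP1. NDST1, the widely expressed form in most tissues, was at 4.93 to 24.7 CPM in the marker groups and NDST2 at 2.06 to 4.34 CPM.

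Other glypican genes were lower or flatter. GPC1 ran from 80.5 CPM in ADCYAP1 to 185 CPM in NTRK3, GPC3 from 17.9 CPM in NTRK2 to 52.9 CPM in TRPM8, GPC4 stayed at 9.64 CPM or less, and GPC2 had 3 UMIs. CHST8, the closest relative of CHST9, was highest in ADCYAP1 (131 CPM) and NTRK3 (128 CPM). CHSY1, the other chondroitin synthase, ran from 16.6 CPM in PVALB to 52.4 CPM in KIT without a peak in IL31RA (21.7 CPM). HS6ST1 ran from 11.8 CPM in KIT to 60.97 CPM in PVALB, and HS6ST2 reached 20.8 CPM in NTRK3. HPSE, the active heparanase gene, had 41 UMIs in the whole table, against 3037 UMIs of HPSE2.

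**Figure D4:**
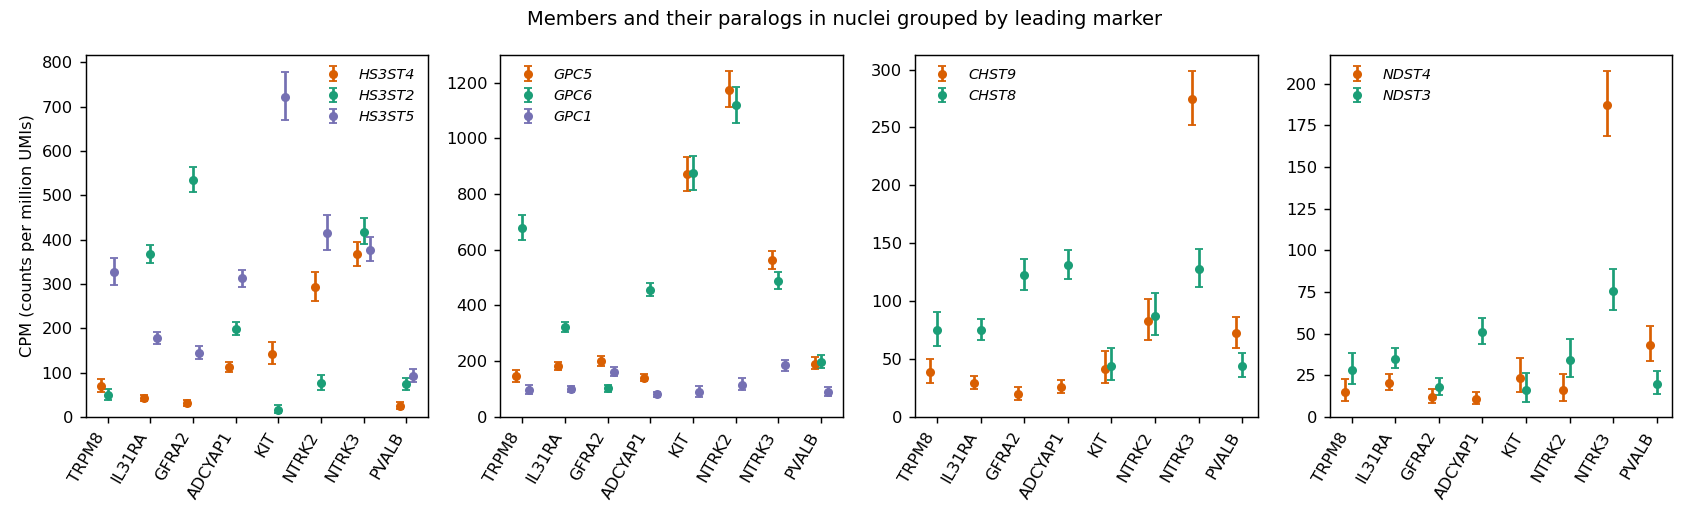
Level in CPM (vertical axis) with 95% Poisson intervals of members and their relatives in the 8 marker groups. HS3ST2 peaks in GFRA2 (535 CPM) and HS3ST5 in KIT (722 CPM) while HS3ST4 is highest in NTRK3 and NTRK2, and NDST3 shares the NTRK3 peak of NDST4 at a lower level.

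The groups were then summed into a C-fibre side (TRPM8, IL31RA, GFRA2 and ADCYAP1, 1395 nuclei), whose leading markers are known from thin, mostly unmyelinated sensory neurons, and a large-fibre side (NTRK2, NTRK3 and PVALB, 593 nuclei). KIT nuclei stood aside. The sides are named by leading markers, and fibre size was not measured. Other marker genes went both ways. SLC17A7 stood at 37.6 to 66.5 CPM on the large-fibre side and at 1.90 to 3.68 CPM on the C-fibre side. NEFH stood at 5911 CPM in PVALB and 1526 CPM in NTRK2. In NTRK3 it stood at 546 CPM, below GFRA2 (1023 CPM), TRPM8 (945 CPM) and IL31RA (672 CPM) but above ADCYAP1 (489 CPM). NTRK2 nuclei also had 254 CPM of KIT. A gene was called where it was at least 2-fold apart with an interval that excluded 1. Of 13062 genes with at least 50 UMIs, 5.39% were called higher and 8.52% lower on the C-fibre side. Of the 8 members, 2 were higher and 4 lower, and since they were chosen for such differences nothing is read from that count.

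HPSE2 (208 against 39.1 CPM, 5.32-fold, 4.57 to 6.22) and CHSY3 (136 against 45.3 CPM, 2.99-fold, 2.59 to 3.47) were higher on the C-fibre side in 5 of 5 libraries. NDST4 (14.7 against 97.9 CPM), CHST9 (27.1 against 160.2 CPM), HS3ST4 (64.8 against 230.4 CPM) and GPC5 (169.6 against 573 CPM) were higher on the large-fibre side in 5 of 5 libraries. For HS3ST4 the log2 ratio by library ran from -3.84 to -0.12. Of these genes, only CHST9 was higher in each large-fibre-side group than in every C-fibre-side group. HS3ST4 was lowest in PVALB (24.0 CPM). NDST4 in NTRK2 (16.01 CPM) was below IL31RA (20.3 CPM), and GPC5 in PVALB (192 CPM) below GFRA2 (200.4 CPM). GPC6 (354 against 531 CPM) and HS6ST3 (62.5 against 101 CPM) were within 2-fold, and each was higher on the C-fibre side in 2 of 5 libraries. The large-fibre side was made up differently in each library. Library 1 held 141 PVALB, 9 NTRK2 and 5 NTRK3 nuclei. Library 3 held 179 NTRK2, 67 NTRK3 and 40 PVALB nuclei, and library 5 held 29 NTRK3 and 1 PVALB. The 5 libraries thus did not repeat 1 comparison.

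Of 111 heparan and chondroitin sulfate genes on a list of synthesis, sulfation, degradation, core protein, receptor and sulfate supply genes, 96 could be measured. Leaving out the 8 members, 5 of 88 were higher on the C-fibre side (5.68%) and 10 of 88 lower (11.4%), shares near those of all genes. The median log2 ratio was -0.10 over these 88 genes and -0.07 over all genes. Those higher on the C-fibre side were 3 receptor genes, LRRTM3, PTPRD and PTPRF, and 2 chondroitin sulfate core protein genes, CD44 and PTPRZ1. LRRTM3, a synaptic adhesion gene, stood at 84.5 against 11.4 CPM (7.42-fold, 5.63 to 9.98), with 187 CPM in the IL31RA group. CD44 stood at 169 against 37.8 CPM (4.47-fold). PTPRZ1 (2.95-fold), and the chain-binding phosphatase genes PTPRD (2.21-fold) and PTPRF (2.02-fold), followed. These 5 genes were higher in 5 of 5 libraries.

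Lower on the C-fibre side were the Nogo receptor gene RTN4R (3.22 against 14.2 CPM, 4.41-fold), the chondroitin sulfotransferase gene CHST15 (36.1 against 132 CPM, 3.65-fold), the glypican receptor gene GPR158 (97.0 against 300.2 CPM, 3.095-fold), the lysosomal sulfatase genes SGSH (3.05-fold) and ARSG (2.55-fold), the sulfate transporter gene SLC26A2 (2.32-fold), the core protein gene AGRN (2.25-fold) and the chain polymerase gene EXT1 (140 against 300.0 CPM, 2.15-fold). BCAN and HS6ST2 were the other called genes, named after their values were seen. EXT1, AGRN and BCAN were lower in 4 of 5 libraries and ARSG in 3 of 5. SLC26A2 and SGSH stood at 8.16 CPM or less on both sides. Some of these calls did not hold in each large-fibre-side group. AGRN stood at 83.8, 89.3 and 1.85 CPM in NTRK2, NTRK3 and PVALB, against 20.9 to 31.5 CPM in the C-fibre-side groups. ARSG stood at 7.53, 35.5 and 6.16 CPM, against 6.49 to 10.7 CPM. EXT1 stood at 166, 515 and 127 CPM, against 127 to 160 CPM.

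**Figure D5:**
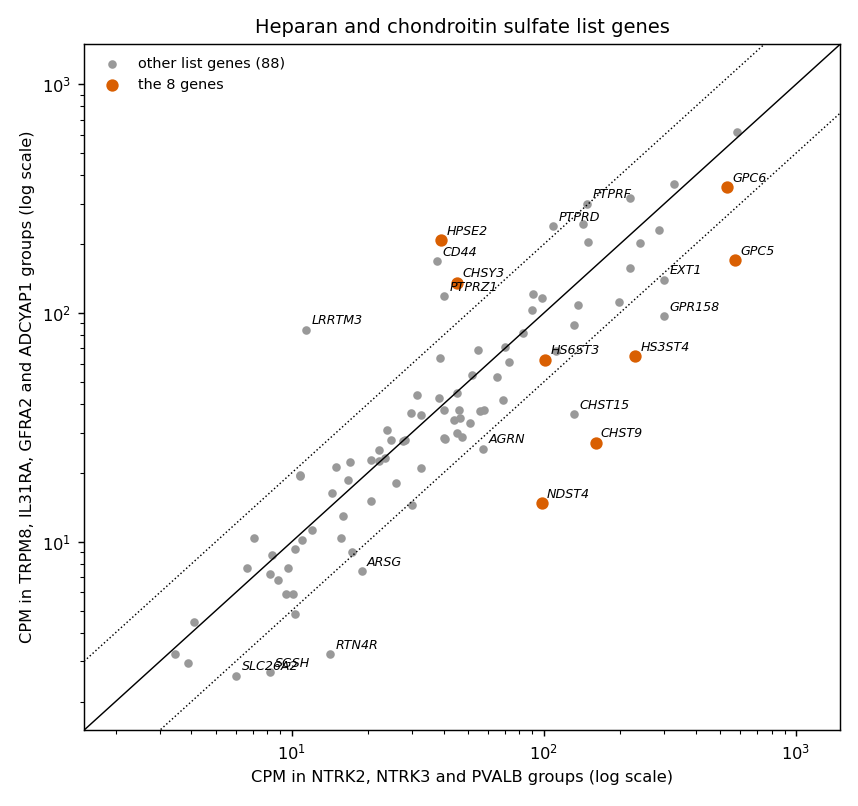
Level of the 96 measured list genes on the large-fibre side (horizontal axis) and the C-fibre side (vertical axis), in CPM on log scales. The solid line marks equal levels and the dotted lines a 2-fold difference. The 8 members are in orange, with HPSE2 and CHSY3 above the upper dotted line and NDST4, CHST9, HS3ST4 and GPC5 below the lower, among 88 other list genes of which most lie between the lines.

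Each marker group was also set against all other nuclei, with the shares of all 13304 genes beside the list. In NTRK3, 20 of 96 list genes were higher, where 13.3% of all genes were, and 4 of the 20 were members (NDST4, CHST9, HS3ST4 and HS6ST3). Lower there were 12 (18.4% of all genes), with HPSE2 among them. In PVALB, 24 of 96 were lower, where 23.9% of all genes were, and 5 were members (CHSY3, GPC6, HPSE2, HS3ST4 and HS6ST3), while 12 were higher (17.3%) with no member. In GFRA2, 11 were lower (7.8% of all genes), of which 6 were members (CHST9, CHSY3, GPC6, HPSE2, HS3ST4 and NDST4), and 6 higher (3.35%) with no member. In KIT, 9 were higher (4.62%), among them GPC5 and GPC6, and 16 lower (7.62%), among them HPSE2 and HS6ST3. In NTRK2, 9 were higher (4.39%), among them GPC5, GPC6 and HS3ST4, and 14 lower (11.4%), among them CHSY3, HPSE2 and NDST4. In TRPM8, 6 were higher (1.89%), including HPSE2 and HS6ST3, and 8 lower (5.24%), including GPC5 and NDST4. In IL31RA, 3 were higher (2.83%), including CHSY3, and 8 lower (6.31%), including CHST9, HS3ST4, HS6ST3 and NDST4. In ADCYAP1, 3 were higher (1.99%) with no member, and 13 lower (8.67%), including CHST9, GPC5, HS6ST3 and NDST4. Without the members, the shares called higher among 88 list genes were 18.2% (NTRK3), 13.6% (PVALB), 6.82% (GFRA2) and 7.95% (KIT). In NTRK2, TRPM8, IL31RA and ADCYAP1 they were 6.82%, 4.55%, 2.27% and 3.41%. The shares called lower were 12.5% (NTRK3), 21.6% (PVALB), 5.68% (GFRA2) and 15.9% (KIT). In NTRK2, TRPM8, IL31RA and ADCYAP1 they were 12.5%, 6.82%, 4.55% and 10.2%. Since the members were chosen for such differences, their counts are a description. These counts shifted with the processing. Across all alternatives, higher genes numbered 13 to 22 in NTRK3, 5 to 12 in NTRK2 and 5 to 19 in PVALB. Lower genes numbered 3 to 16 in NTRK2, 6 to 17 in TRPM8, 6 to 16 in IL31RA, 10 to 23 in ADCYAP1, 9 to 19 in KIT and 7 to 14 in NTRK3. The groups differ in the shift of all genes, with medians of log2 ratios from -0.23 in PVALB to -0.01 in NTRK3.

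For each member, the genes with the most similar profile over the 31 group-by-library sums were taken from 8573 genes with at least 200 UMIs. NDST4 was most like TACR1, the substance P receptor gene (Pearson correlation 0.92), PLEKHG1 (0.91) and LAPTM4B (0.87). CHST9 was most like SGK1 (0.88), ST8SIA1 (0.87) and the marker NTRK3 itself (0.86). HS6ST3 was most like FAM184B (0.89), CUX2 (0.87) and NXPH1 (0.87), HPSE2 like the calcium channel subunit gene CACNB2 (0.84), ZDHHC3 (0.83) and SLC4A11 (0.82), and HS3ST4 like CPA6 (0.84), GPI (0.79) and CCDC172 (0.79). GPC5 was most like NWD2 (0.76), LRFN2 (0.75) and GPR158 (0.75). GPR158, which binds a glypican, stood at 443 CPM in NTRK2, 419 CPM in KIT and 387 CPM in NTRK3, and at 135 CPM or less in the other groups. CHSY3 was most like GPR149 (0.76), PDE8B (0.74) and SOBP (0.73), and GPC6, with the weakest likeness, like RASAL2 (0.70), CNKSR2 (0.70) and C3orf70 (0.69).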

How the data were processed

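The authors deposited 1 table of raw UMI counts, 30477 rows by 2189 nuclei, without normalization. The submitters' processing notes list Cell Ranger 6.0.1, Seurat and the build Sscrofa11.1 but give them no role, and libraries were made with 10x Genomics 3' v3.1 chemistry, per the labels' protocols. Whether nuclei were removed before deposit is not stated, and the shallowest nucleus had 501 UMIs. Symbols were added to 773 of 14012 Ensembl rows. No doublet caller was run.

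The 8 members and all lists were chosen with earlier results of these data known. Counts were scaled to 10000 per nucleus and log-transformed, list genes were dropped from 2000 variable genes (1979 remained), and clusters came from 30 components, 15 neighbours and Leiden at resolution 1 in scanpy 1.11.5 with igraph 0.11.9. A cluster took the group of the marker with the highest log2 ratio of CPM against the rest of its libraries, from a ratio of 1, a limit set after the clusters were seen. CPM intervals and ratios used scipy 1.17.1. Ratios inside a library were taken where both sides had 10 nuclei and the gene 10 UMIs, after adding 0.5 to each count. A share of 0 allows 3 counts. Named genes were all members, up to 8 other list genes per direction, the members' relatives and the 3 most similar genes per member. Ratios were tested on simulated Poisson counts, as the intervals assume, so that test says nothing about spread between nuclei or libraries. Of 111 list genes, 108 had a row, 3 (BPNT2, HGSNAT and SDC4) were not analysed here, and 12 were under 50 UMIs. No sequence is printed.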

Additional observations from a re-analysis of the deposited data

How the results depend on the processing

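No paired analysis was possible because all pigs form 1 group and no nucleus is tied to a pig. Over 144 alternatives, the log2 ratio of each member's highest group over the rest kept its sign in all, stayed within its counting interval in 83 and moved beyond it in 61; the cause was not tested. Leaving out each library gave 2.50 to 3.05 for CHST9, 1.62 to 2.19 for CHSY3, 0.85 to 2.42 for GPC5, 0.99 to 1.66 for GPC6, 2.47 to 2.84 for HPSE2, 1.72 to 2.49 for HS3ST4, 1.74 to 2.33 for HS6ST3 and 2.77 to 3.68 for NDST4, and 9 to 17 list genes lower on the C-fibre side (9 without library 4, against 14) and 6 to 8 higher. Leiden resolution 0.5 gave 1.74 for CHSY3, 2.63 for GPC5, 2.12 for GPC6, 3.38 for HPSE2 and 2.41 for HS6ST3. Resolution 1.5 gave 1.88 for GPC5, 1.10 for GPC6, 2.99 for HPSE2 and 2.70 for HS6ST3. Grouping each nucleus by its own markers gave 2.48 for GPC5, 0.77 for GPC6 and 0.72 for HS3ST4, and 4 list genes higher in place of 7. The mean CPM over nuclei gave 2.20 for CHSY3, 2.72 for GPC5, 1.70 for GPC6, 1.39 for HPSE2, 1.64 for HS3ST4 and 0.86 for HS6ST3. Thinning gave 2.12 for CHSY3, 2.65 for GPC5, 1.74 for GPC6, 1.52 for HPSE2 and 0.86 for HS6ST3, and 8 list genes lower, of 60 with enough counts. Centring on all genes gave 2.38 for GPC5, 1.68 for GPC6 and 2.67 for HPSE2. Without nuclei above 50000 UMIs the values were 2.11 for CHSY3, 1.60 for GPC6 and 2.69 for HS3ST4. Nuclei with at least 1000 genes gave 2.72 for HPSE2.

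The following were added after seeing the data. The mean of within-library ratios gave 2.66 for CHST9, 2.17 for CHSY3, 0.032 for GPC5, 0.95 for GPC6, 2.73 for HPSE2 and 1.53 for HS3ST4. Leaving mitochondrial UMIs out of the totals gave 2.29 for GPC5 and 1.59 for GPC6. Without the shallow TRPM8 cluster the values were 3.08 for HPSE2 and 2.58 for HS6ST3, and without the cluster of no group 2.92 for HPSE2. The highest group stayed the same in all 17 alternatives that rank the groups for NDST4, HPSE2, CHSY3 and CHST9, in 16 for GPC5 and GPC6, 13 for HS6ST3 and 12 for HS3ST4, with NTRK2 first in place of NTRK3 for HS3ST4, and NTRK3 first in place of TRPM8 for HS6ST3.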

Other observations

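EXT1, whose product polymerises heparan sulfate, stood at 515 CPM in the NTRK3 group and at 127 to 166 CPM in the other marker groups. CHST15, which adds a further sulfate to chondroitin, stood at 240.0 CPM in NTRK3 and at 57.4 CPM or less elsewhere. The KIT group had the highest level among the marker groups of the core protein genes VCAN (229 CPM) and SPOCK3 (555 CPM), the epimerase gene DSE (40.7 CPM) and the heparan sulfate sulfatase gene SULF1 (74.9 CPM). The other marker groups had at most 107, 410, 13.2 and 34.4 CPM of these. More list genes were called lower in KIT (16) than higher (9), among the lower ones BCAN, CD44, CHST15, CHST8, CSGALNACT1 and PTPRZ1. SULF2 and the chain-binding phosphatase gene PTPRF were highest in GFRA2, at 208 and 508 CPM. UST, a dermatan sulfate sulfotransferase gene, was highest in TRPM8 (446 CPM) and ADCYAP1 (367 CPM). The genes in this paragraph were chosen after their values were seen.

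LRRTM4, a synaptic adhesion gene whose product binds glypicans, stood at 1073 CPM in the cluster without a leading marker, beside its 973 CPM of GPC6, and at 43.6 to 349.7 CPM in the marker groups.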
